A study of Homo sapiens with 6 samples.

Results

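The genes described are those of the cytosolic ribosomal proteins, the protein components of the ribosomes that translate nuclear-encoded mRNA. They were taken by symbol from a table of mRNA abundance: RPL or RPS followed by a digit, with RPLP0, RPLP1, RPLP2 and RPSA, and without the S6 kinases and the paralogs that carry an L after the number. This rule found 75 of the 8529 rows. Of these, 74 name a ribosomal protein, 44 of the large subunit and 30 of the small subunit, and all 74 are protein-coding genes in RefSeq. The remaining row, RPS19BP1, names a binding protein of RPS19 and was kept apart. RefSeq lists 79 protein-coding symbols under the same rule. Of these, RPL3, RPL6, RPS9, RPS4Y1 and RPS4Y2 had no row under that symbol in the table and so were not analysed.

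RNA was sequenced from SW480, an established line of human colorectal adenocarcinoma cells, labelled wild type in all samples. The cells were cultured for 72 h in wells coated with hydrogels of 2 kPa (soft) or 25 kPa (stiff), in Leibovitz's L-15 medium without added CO2, and each stiffness had 3 libraries. The methods of the study mention a selection of small RNA on a gel, although the table lists mRNA genes, so how the RNA behind these FPKM was selected is uncertain. The comparison asks which mRNAs differ with the stiffness of the matrix. The labels call the cultures triplicates of 1 cell line and do not say whether they were grown on separate days, so the p-values measure the spread between these 6 libraries only.

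A ribosome joins a small subunit, which binds the mRNA and decodes it, to a large subunit, which forms the peptide bonds, and each protein is present once per ribosome except those of the acidic stalk. Cells therefore make the ribosomal proteins in step with each other and with ribosomal RNA. Most of their mRNAs begin with a C followed by an uninterrupted run of pyrimidines, the 5′ terminal oligopyrimidine (TOP) tract, through which the mTORC1 pathway and the RNA-binding protein LARP1 set how strongly they are translated. A change in translation through this tract need not alter the amount of mRNA, which is the quantity measured here. Growing tumour cells make many ribosomes, and free ribosomal proteins such as RPL5 and RPL11 bind MDM2 and so affect p53.

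The starts of 10 genes that carry the tract at the start are given as examples, at high and low levels of the mRNA. In RPL15, also among the rows with the smallest p, RPS4X and RPS29 no such tract was found within 5 bases of an annotated start. At an annotated start of RPL15 a run of C and T lies further downstream, outside that range. These genes are therefore not said to lack the tract. The sequences come from RefSeq on GRCh38.p14 and hold 10 bases before the annotated transcription start and 20 bases from it. The capitals mark the pyrimidine tract that begins at the start. The first 4 genes belong to the most abundant rows, RPL22, RPS16 and RPL14 are among the rows with the smallest p, and RPSA, RPL28 and RPS24 are among the rows with the lowest levels.
RPL37A, chr2:216498834-216498863, forward strand: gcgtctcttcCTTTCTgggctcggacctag
RPL35, chr9:124861938-124861967, reverse strand: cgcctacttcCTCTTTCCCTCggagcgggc
RPS18, chr6:33272065-33272094, forward strand: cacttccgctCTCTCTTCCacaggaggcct
RPS6, chr9:19380217-19380246, reverse strand: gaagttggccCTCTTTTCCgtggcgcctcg
RPL22, chr1:6199576-6199605, reverse strand: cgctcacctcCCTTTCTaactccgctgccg
RPS16, chr19:39435930-39435959, reverse strand: ccctagctttCCTTTTCCggttgcggcgcc
RPL14, chr3:40457329-40457358, forward strand: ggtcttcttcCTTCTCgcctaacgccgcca
RPSA, chr3:39406710-39406739, forward strand: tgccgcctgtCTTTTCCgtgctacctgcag
RPL28, chr19:55385922-55385951, forward strand: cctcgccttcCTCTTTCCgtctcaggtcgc
RPS24, chr10:78033853-78033882, forward strand: aatcgtggttCTCTTTTCCTCCTTggctgt

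A RefSeq window of 250 bases before to 50 bases after the start was found for 59 of the 74 genes. In 45 of these 59 (76.3%), at least 1 annotated start was a C followed by 4 or more pyrimidines. The same was true of 4.07% of all 35116 windows and of 6.82% of the 6395 other genes of the table with a window. By subunit, the tract was present in 28 of 36 large and in 17 of 23 small subunit genes. By mRNA level, it was present in 8 of 9 genes with a mean FPKM under 10, in 6 of 9 between 10 and 100, and in 31 of 41 at 100 or more, so that genes of low and high level shared it. The word CTTTCC was read on the sense strand from 20 bases before to 30 bases after the start and was often part of the same tract. It stood in 37.3% of the 59 genes, in 2.35% of all windows and in 2.89% of the other genes of the table. The word CCGGAAG, the core that ETS factors such as GABP bind, was searched on both strands of the whole window and stood in 35.6% of the 59 genes against 10.3% of all windows and 22.4% of the other genes of the table. The word TATAAA on the sense strand stood in 3.39% of the 59 genes, in 7.33% of all windows and in 5.08% of the other genes of the table. These are matches of letters at annotated starts, and the starts used in SW480 cells were not measured.

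Ribosomal protein mRNAs were among the most abundant of the table. FPKM, the fragments counted per length of transcript and per total of mapped fragments, allow levels of different genes to be compared per length. The mean over the 6 libraries ran from 0.172 FPKM for RPS24 to 3850 FPKM for RPL37A, with a median of 740.5 FPKM over the 74 rows against 2.61 FPKM over all 8529. The family held 18 of the 30 most abundant rows and 40 of the top 100. Of the 45 rows with a mean of at least 1000 FPKM, 25 were ribosomal protein genes, 12 of the large and 13 of the small subunit. A further 29 members lay between 100 and 1000 FPKM, 9 between 10 and 100, and 11 under 10, where 73.9% of all rows lay.

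**Figure D1:**
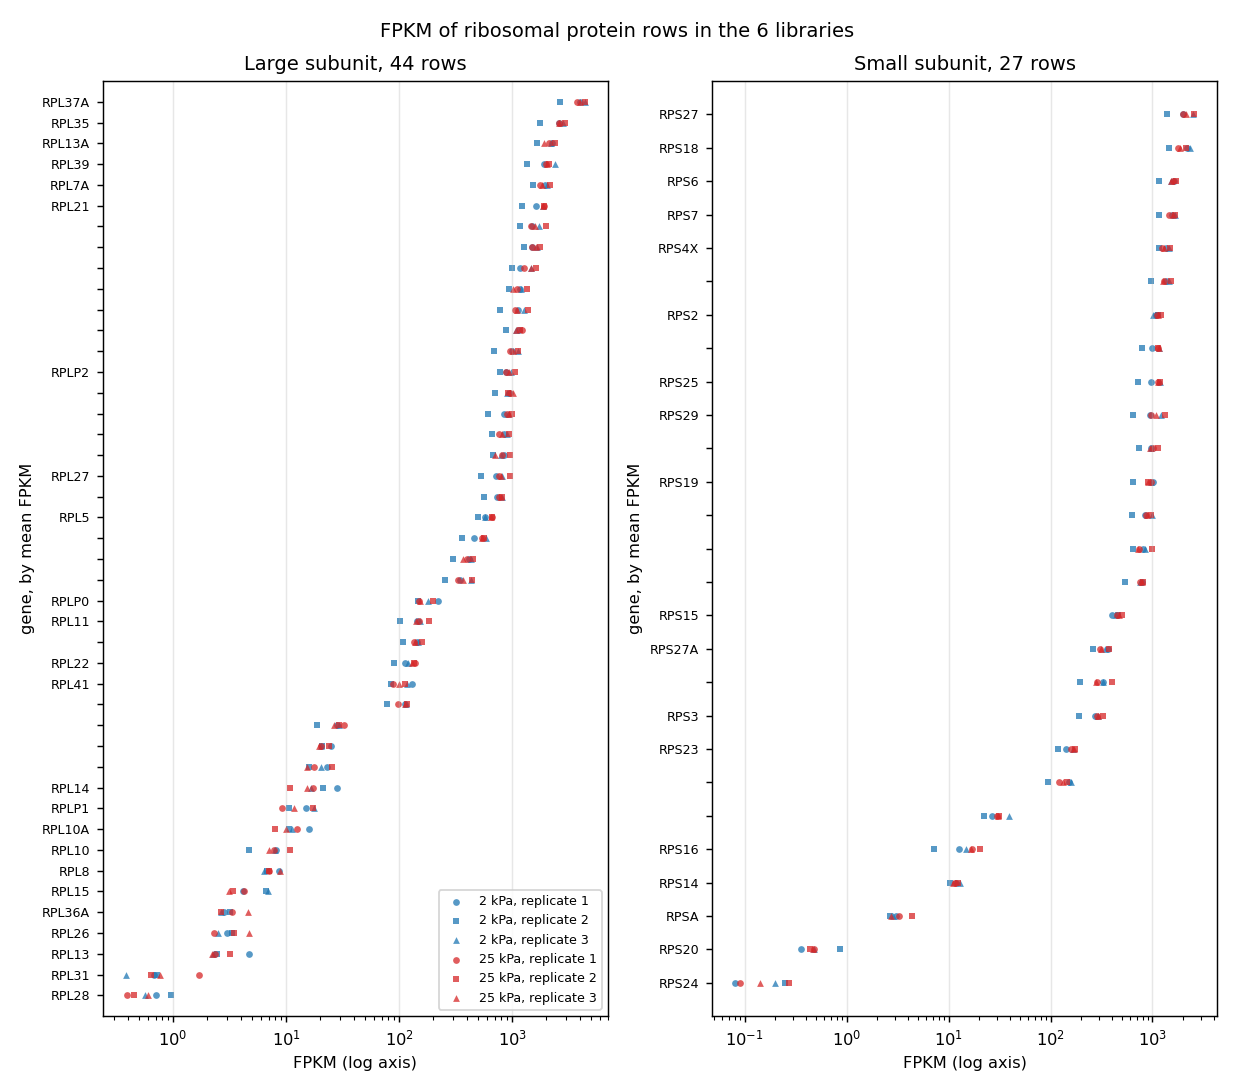
FPKM (log axis) of the 44 large and 27 of the small subunit rows in each of the 6 libraries, ordered by mean and labelled where the text names the gene, with 2 kPa in blue, 25 kPa in red and 1 symbol for each replicate number. Within most rows the 6 points lie close together against the range between rows, which runs from 0.172 to 3850 FPKM in the mean, and the blue square of 2 kPa replicate 2 is the lowest point of most rows at 100 FPKM or more.

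The summed FPKM of the 74 rows amounted to a large share of each library, which varied more at 2 kPa than at 25 kPa. The share was 24.2%, 21.1% and 26.1% in 2 kPa replicates 1, 2 and 3, and 24.1%, 24.5% and 24.0% in 25 kPa replicates 1, 2 and 3. The means were 23.8% ± 2.52 at 2 kPa and 24.2% ± 0.265 at 25 kPa (SD, n = 3), and the 25 kPa libraries lay within the range of the 2 kPa libraries. Without 2 kPa replicate 2, the difference went from 0.407 percentage points higher at 25 kPa to −0.948, so its sign rested on that library. The large subunit rows took 11.7% to 14.5% of a library and the small subunit rows 9.40% to 11.5%. A share of summed FPKM weights each transcript once, whatever its length, and is not a share of reads.

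**Figure D2:**
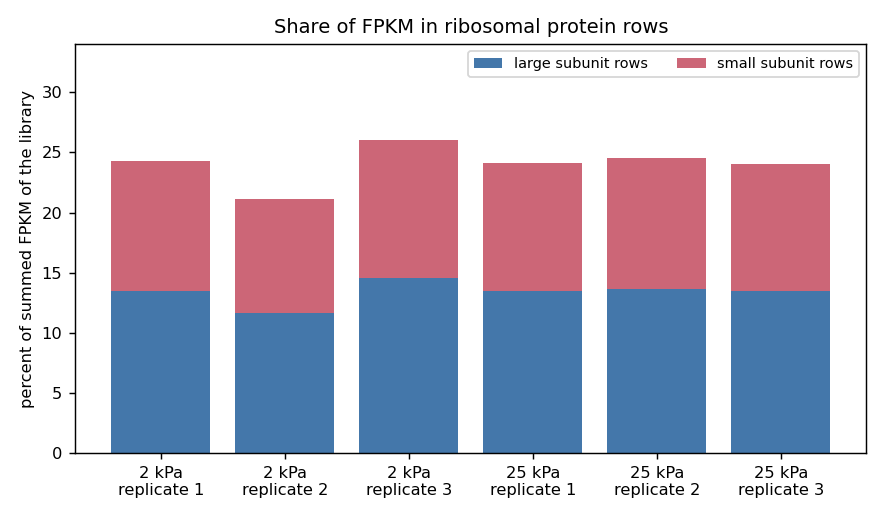
Percent of the summed FPKM of each library in large (blue) and small (red) subunit rows, stacked from 0, for the 3 libraries at each stiffness. The 25 kPa bars reach 24.1%, 24.5% and 24.0% and lie between the lowest 2 kPa bar, 21.1% in replicate 2, and the highest, 26.1% in replicate 3.

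The most abundant large subunit mRNA was RPL37A, which encodes a small zinc-binding protein, at 3992, 2658 and 4414 FPKM in 2 kPa replicates 1 to 3 and 3698, 4402 and 3937 FPKM in 25 kPa replicates 1 to 3. RPL35, whose protein sits beside the exit of the nascent peptide tunnel, followed at 2603, 1766 and 2825 FPKM at 2 kPa and 2577, 2951 and 2586 FPKM at 25 kPa. For both genes 2 kPa replicate 2 was far below the other libraries, which overlapped between the groups. RPL13A, whose protein also takes part in the GAIT complex that silences inflammatory mRNAs, had 2249, 1664 and 2195 FPKM at 2 kPa and 2109, 2367 and 1903 FPKM at 25 kPa. RPL39, which lines the tunnel, had 1889, 1338 and 2362 FPKM and 1978, 2117 and 2042 FPKM. RPL7A had 1935, 1508 and 2036 FPKM and 1754, 2149.7 and 1823 FPKM. In these 3 genes too, 2 kPa replicate 2 was the lowest library, and the group means of RPL13A, RPL39 and RPL7A differed by less than the SD of the 2 kPa libraries.

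Among the abundant mRNAs of the small subunit, RPS27, which encodes a zinc finger protein, had 1972, 1378 and 2492 FPKM at 2 kPa and 1974, 2583 and 2145 FPKM at 25 kPa. RPS18, in the head of the subunit, had 2188, 1448 and 2314 FPKM at 2 kPa and 1781, 2122 and 1847 FPKM at 25 kPa. Again the groups overlapped, and 2 kPa replicate 2 was lowest for both genes. RPS6, the protein that S6 kinases phosphorylate downstream of mTORC1, had 1633, 1156 and 1531 FPKM at 2 kPa and 1609, 1719 and 1516 FPKM at 25 kPa. RPS7, which like RPL5 and RPL11 can bind MDM2, had 1557, 1172 and 1664 FPKM and 1449, 1651 and 1586 FPKM. The range from 2 kPa replicate 2 to the next library was in both genes wider than the range of the other 5.

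At the other end, 11 ribosomal protein rows were listed under 10 FPKM: RPL10, RPL8, RPL15, RPL36A, RPL26, RPSA, RPL13, RPL31, RPL28, RPS20 and RPS24. RPS24, a protein of the small subunit body that is mutated in some patients with Diamond-Blackfan anaemia, had 0.08, 0.25 and 0.20 FPKM at 2 kPa and 0.09, 0.27 and 0.14 FPKM at 25 kPa. RPS20 had 0.36, 0.86 and 0.48 FPKM and 0.48, 0.44 and 0.47 FPKM. RPSA, which is also known as the laminin receptor precursor, had 3.02, 2.68 and 2.87 FPKM at 2 kPa and 3.28, 4.37 and 2.74 FPKM at 25 kPa. None of these 3 rows separated the groups. RPL28 had 0.70, 0.95 and 0.57 FPKM at 2 kPa and 0.39, 0.45 and 0.60 FPKM at 25 kPa, and RPL31 had 0.68, 0.72 and 0.38 FPKM and 1.69, 0.64 and 0.76 FPKM. RPL13 had 4.65, 2.43 and 2.24 FPKM and 2.37, 3.20 and 2.22 FPKM. The proteins of these mRNAs are present in every ribosome, as are those of the rows near the top. RPL26, whose protein also binds the 5′ end of p53 mRNA, had 3.0, 3.33 and 2.48 FPKM at 2 kPa and 2.32, 3.48 and 4.65 FPKM at 25 kPa. RPL36A had 2.84, 3.17 and 2.67 FPKM and 3.32, 2.68 and 4.63 FPKM.

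The rows of lowest level had a higher median number of annotated transcripts, with ranges that overlapped those of the other rows. In GENCODE, the 11 rows under 10 FPKM had a median of 14 transcripts a gene (9 to 19), against 8 (5 to 24) for the rows from 10 to 100 FPKM, 8 (2 to 27) for those from 100 to 1000 FPKM and 9 (3 to 17) for those at 1000 FPKM or more. Pseudogenes carrying the gene's name had medians of 14, 5, 10 and 9 in the same order, and their ranges overlapped widely too. The median transcript length was 712, 657.5, 683 and 612 nt. GAPDH, an enzyme of glycolysis used as a reference gene, was listed as low, at 3.35, 0.32 and 2.35 FPKM at 2 kPa and 0.77, 3.25 and 1.11 FPKM at 25 kPa. How reads were divided among transcripts and near-identical pseudogenes was not given in the sources used here, so the level of a single row is uncertain, and the part of the annotation in the low levels was not tested.

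In the comparison of 25 kPa with 2 kPa, 0 of the 74 ribosomal protein rows passed an adjusted p of 0.05 (limma on log2(FPKM + 1), two-sided, Benjamini-Hochberg over all rows), where 10 of 8529 rows did (0.117%). The lowest adjusted p of a member was 0.403, for RPS16. At an unadjusted p under 0.05 there were 4 members, RPS16 and RPL22 with higher and RPL14 and RPL15 with lower values at 25 kPa, beside 866 of all rows (10.2%, of which 6.96% were higher and 3.19% lower). The count was 0 without 25 kPa replicate 2, and 2 without 2 kPa replicate 1 or 25 kPa replicate 3. The 3 libraries of each stiffness did not overlap for 3 members, RPS16, RPL22 and RPL5, all higher at 25 kPa, and for 0 in the lower direction, beside 11.2% and 4.78% of all rows (16.0% in either direction). Both counts lay below what the background share would give for 74 rows.

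The fitted differences were small. They ran from −0.57 for RPL15 to 0.63 for RPS16 on the log2 scale, with standard errors of 0.0901 to 0.336 and a median standard error of 0.21. The 95% interval of the difference lay within 1 log2 unit on either side of 0 for 71 of the 74 rows, and for all 54 rows with a mean of at least 100 FPKM. A change of 2-fold was thus outside the interval for the 54 abundant rows, whereas smaller ones were within it for many. For rows of low level this scale understates a change in FPKM. The median difference was 0.15 over the members, 0.16 in the large and 0.14 in the small subunit, beside 0.05 over all rows.

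**Figure D3:**
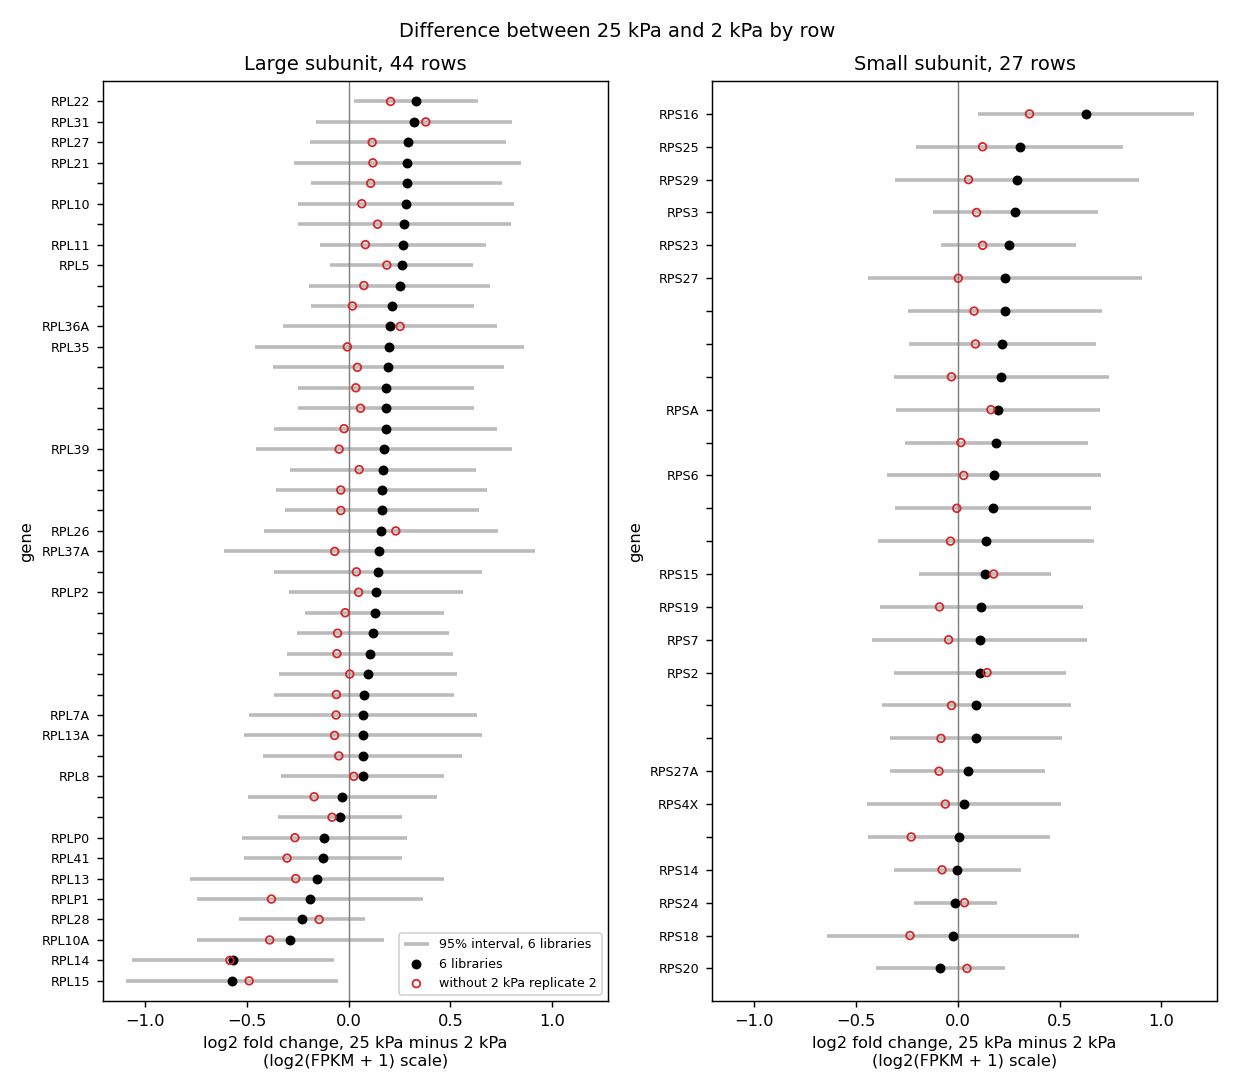
Fitted log2 fold change, 25 kPa minus 2 kPa on the log2(FPKM + 1) scale, of the 44 large and 27 of the small subunit rows, labelled where the text names the gene, with its 95% interval (grey bar), from 6 libraries (black) and without 2 kPa replicate 2 (red circle). Over the 74 members the differences centre at 0.15 with 6 libraries and at −0.00 without that library, and the intervals of RPS16, RPL22, RPL14 and RPL15 alone leave out 0 before adjustment for multiple tests.

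The direction of the median rested on 2 kPa replicate 2. With 6 libraries the difference was above 0 for 59 of 74 members (34 of 44 large, 25 of 30 small), beside 59.6% of all rows. Without 2 kPa replicate 2, it was above 0 for 37 of 74 and the median was −0.00. Over all rows the median went from 0.05 to 0.08, and 65.7% were above 0 without that library. Leaving out any other library kept the median between 0.07 and 0.22. The median also varied with the scale. With FPKM rescaled to equal library sums it was 0.02 and 42 of 74 were above 0, with equal sums over the rows outside the family 0.03 and 43 of 74, and with quantile normalisation 0.01 and 38 of 74. With median centring it stayed at 0.10, and 56 of 74 were above 0. Over all rows the medians were −0.02, −0.01, 0.003 and −0.004 under these settings, in the order given. The shares of all rows above 0 were 45.6%, 46.5%, 50.7% and 49.1%.

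The abundant members moved together from library to library, and those under 100 FPKM did so less. For the latter, the median deviation from the row's own mean was −0.09 log2 units in 2 kPa replicate 2. Of the 74 rows, 58 had their lowest value in 2 kPa replicate 2, and of the 54 rows with a mean of at least 100 FPKM, 52 did, whereas 17.6% of all rows were lowest there. The highest value fell in 25 kPa replicate 2 for 41 of 74. The matching share of all rows was not computed, so nothing particular to the family is read from this count. For the 54 abundant rows, the median deviation from the row's own mean was 0.02, −0.40 and 0.13 in 2 kPa replicates 1 to 3 and −0.00, 0.20 and 0.04 in 25 kPa replicates 1 to 3, in log2 units. Other rows with a mean of at least 100 FPKM (n = 295) had medians of 0.01, −0.29 and 0.03 and of 0.00, 0.20 and 0.02, so abundant mRNAs outside the family were also low in 2 kPa replicate 2. Over all rows the same library stood at 0.04. The summed FPKM were 233271, 201030 and 235728 at 2 kPa and 231714, 263028 and 235396 at 25 kPa, lowest in the same library and highest in 25 kPa replicate 2. The part of this library scale in the differences was not tested beyond the rescaled values above.

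**Figure D4:**
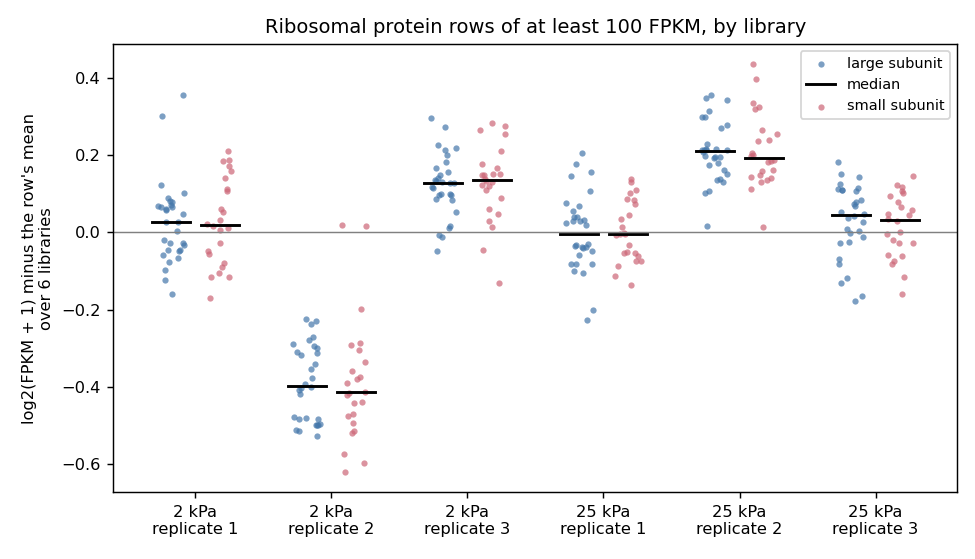
Deviation of log2(FPKM + 1) from the row's mean over the 6 libraries, for the large (blue) and small (red) subunit rows of at least 100 FPKM in each library, with the median as a black bar. Both subunits drop together in 2 kPa replicate 2, with a median of −0.40 over the 54 rows, and lie highest in 25 kPa replicate 2, at 0.20.

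Singled out after their values were seen, RPS2 and RPS15 were the abundant members that did not drop in 2 kPa replicate 2. RPS2, at the mRNA entry site of the small subunit, had 1078, 1131 and 1019 FPKM at 2 kPa and 1113, 1221 and 1143 FPKM at 25 kPa. RPS15, in the head of the subunit, had 401, 456 and 436 FPKM at 2 kPa and 449, 504 and 466 FPKM at 25 kPa. In both rows 2 kPa replicate 2 was the highest of the soft libraries.

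RPS16, whose tail reaches the tRNA in the decoding site, had the largest difference. It was listed at 12.8, 7.25 and 14.8 FPKM at 2 kPa and at 17.0, 20.3 and 16.5 FPKM at 25 kPa. Each stiff library lay above each soft library, and 2 kPa replicate 2 was lowest. The difference was 0.63 (SE 0.23; adjusted p = 0.403 by limma), 0.52 with equal library sums and 0.35 without 2 kPa replicate 2. RPL22, which also binds small viral and cellular RNAs outside the ribosome, had 112, 89.1 and 121 FPKM at 2 kPa and 138, 135 and 129 FPKM at 25 kPa. The groups again did not overlap, with a difference of 0.33 (SE 0.13; adjusted p = 0.448 by limma), which was 0.21 both with equal library sums and without 2 kPa replicate 2. RPL22 values at 25 kPa were 134 ± 4.28 FPKM against 107 ± 16.3 FPKM at 2 kPa (SD, n = 3).

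RPL5 and RPL11 form, with 5S ribosomal RNA, the particle that joins the large subunit or binds MDM2. RPL5 had 571, 493 and 579 FPKM at 2 kPa and 662, 658 and 645 FPKM at 25 kPa, with no overlap between the groups and a difference of 0.26 (SE 0.15; adjusted p = 0.62 by limma). RPL11 had 143, 101 and 153 FPKM at 2 kPa and 148, 183 and 142 FPKM at 25 kPa, with overlap and a difference of 0.27 (SE 0.18; adjusted p = 0.683 by limma). Without 2 kPa replicate 2 the differences were 0.19 for RPL5 and 0.08 for RPL11.

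The lower values at 25 kPa were found in rows of low level. RPL14 had 28.2, 21.1 and 16.7 FPKM at 2 kPa and 17.2, 10.9 and 15.2 FPKM at 25 kPa. RPL15 had 4.17, 6.65 and 6.95 FPKM at 2 kPa and 4.22, 3.42 and 3.13 FPKM at 25 kPa. In each gene a single value kept the groups from separating, 25 kPa replicate 1 above a soft library. The differences were −0.57 for RPL14 (SE 0.22; adjusted p = 0.419 by limma) and −0.57 for RPL15 (SE 0.23; adjusted p = 0.444 by limma), and they were −0.58 and −0.49 without 2 kPa replicate 2. RPL10A, the protein of the mobile L1 stalk, had 15.9, 10.6 and 11.2 FPKM at 2 kPa and 12.4, 8.02 and 9.96 FPKM at 25 kPa, a difference of −0.29 (SE 0.20). For RPL28, given above, the difference was −0.23 (SE 0.14).

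The acidic stalk of the large subunit, which recruits the translation factors, consists of RPLP0 and dimers of RPLP1 and RPLP2. RPLP0 had 220.4, 147 and 179 FPKM at 2 kPa and 149.6, 197 and 152 FPKM at 25 kPa. RPLP1 was listed far lower, at 15.0, 10.6 and 17.5 FPKM and 9.12, 17.1 and 11.7 FPKM. RPLP2 had 881, 772 and 966 FPKM and 875, 1058 and 938 FPKM. These 3 partners thus differed in level in every library, and for each of them the groups overlapped. The fitted differences were −0.12 for RPLP0, −0.19 for RPLP1 and 0.13 for RPLP2, with standard errors of 0.18, 0.24 and 0.19, and each changed sign under 1 or 2 of the 18 alternative settings.

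Of the small subunit genes closest to the threshold after RPS16, RPS23, at the decoding centre, had 141, 117 and 166 FPKM at 2 kPa and 158, 174 and 169 FPKM at 25 kPa. RPS3, at the mRNA entry and also a DNA repair factor, had 276, 191 and 291 FPKM and 288, 326 and 292 FPKM. RPS25, which many viral internal ribosome entry sites need, had 960.3, 728 and 1175 FPKM and 1144, 1196 and 1129 FPKM. The groups overlapped for all 3, with 2 kPa replicate 2 the lowest library. The differences ran from 0.25 for RPS23 to 0.30 for RPS25, and were 0.12, 0.09 and 0.12 for RPS23, RPS3 and RPS25 without 2 kPa replicate 2. In the large subunit, RPL27 had 719, 529.8 and 812 FPKM at 2 kPa and 758, 949 and 789.9 FPKM at 25 kPa, a difference of 0.29 (SE 0.21) that was 0.12 without the same library.

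For another 3 small subunit genes the differences were within 0.05 of 0. RPS27A, made as a fusion with ubiquitin, had 367, 264 and 339.8 FPKM at 2 kPa and 309, 376 and 312 FPKM at 25 kPa. RPS4X, from the X chromosome, had 1346, 1156 and 1452 FPKM and 1249, 1479 and 1301 FPKM. The sign of their differences, 0.05 and 0.03, changed under 8 and 7 of the 18 alternatives. RPS14, on the platform of the subunit, had 11.8, 10.4 and 13.0 FPKM at 2 kPa and 11.5, 12.5 and 11.1 FPKM at 25 kPa. Its difference was −0.00, with a 95% interval from −0.31 to 0.31.

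The 37 members outside the rule for naming, 24 of the large and 13 of the small subunit, had mean levels from 7.44 FPKM for RPL8 to 1722 FPKM for RPL21. Their differences ran from −0.12 for RPL41 to 0.29 for RPS29, 34 of them above 0, with a lowest adjusted p of 0.713 by limma. Of these genes 32 had their lowest value in 2 kPa replicate 2, and without that library the differences ran from −0.30 to 0.18 and 19 were above 0.

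Between the subunits, the balance of the mRNAs was close to constant. The summed FPKM of the large subunit rows was 1.254, 1.243 and 1.261 times that of the small subunit rows at 2 kPa and 1.268, 1.262 and 1.286 times at 25 kPa. The groups did not overlap, with means of 1.253 ± 0.00945 and 1.272 ± 0.0123 (SD, n = 3), although 2 kPa replicate 3 and 25 kPa replicate 2 lay next to each other. The ratio does not depend on the scale of a library, and it was not tested, since it is a score over the members. By medians the picture differed. The median log2(FPKM + 1) of the large subunit rows minus that of the small subunit rows was −1.03, −0.97 and −0.95 at 2 kPa and −0.97, −0.96 and −1.01 at 25 kPa, so that the groups overlapped. Of the 44 large subunit rows 14 had a mean under 100 FPKM, and of the 30 small subunit rows 6 did. Among the 54 rows above that level, the median difference between subunits was −0.18, −0.10 and −0.27 at 2 kPa and −0.26, −0.26 and −0.23 at 25 kPa.

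FPKM were also scaled to equal sums over the ribosomal protein rows, so that only changes within the family remained. The unadjusted p by limma was then under 0.05 for RPS16 (0.49 on the log2 scale), RPL14 (−0.72) and RPL41 (−0.28). The lowest adjusted p was 0.813. Under the same scaling 485 of all 8529 rows had an unadjusted p under 0.05, 201 higher and 284 lower at 25 kPa. Nothing particular to the family is read from these 3 rows. RPL41, the smallest protein of the ribosome, had 128, 84.8 and 118 FPKM at 2 kPa and 88.9, 112 and 99.2 FPKM at 25 kPa. Its groups overlapped.

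Related genes outside the rule gave the same count of calls, 0 at an adjusted p of 0.05 in every list (limma). The 4 paralogs with an L after the number, of 8 listed, had a median difference of 0.34 without a row under an unadjusted p of 0.05, and 0.16 without 2 kPa replicate 2. FAU, which encodes a ribosomal protein fused to a ubiquitin-like protein, had 942, 693 and 1018 FPKM at 2 kPa and 831, 984 and 806 FPKM at 25 kPa. Of 91 ribosome biogenesis factors in the table, 4 had an unadjusted p under 0.05, all higher at 25 kPa: NPM1, NIP7, KRR1 and NOL11. This count, and those of the lists that follow, stand beside 10.2% of all rows (6.96% higher and 3.19% lower), and nothing particular to a list is read from them. The median over the 91 was 0.10, beside 0.05 over all rows, and −0.01 with equal library sums, beside −0.02. Among 15 chaperones and export factors of ribosomal proteins it was BRIX1, among 14 genes of RNA polymerase I it was POLR2K, and among 17 other TOP genes HNRNPA1 and NPM1. Among 15 regulators, 2 had an unadjusted p under 0.05. RHEB, the GTPase that activates mTORC1, had 66.8, 65.4 and 74.0 FPKM at 2 kPa and 80.2, 88.3 and 82.8 FPKM at 25 kPa. EIF4E, the cap-binding factor, had 2.70, 2.28 and 1.02 FPKM and 4.68, 4.35 and 3.35 FPKM. In both, the stiff libraries lay above the soft ones, as in 11.2% of all rows, with adjusted p = 0.409 for RHEB and 0.357 for EIF4E by limma.

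RPS19BP1, which the rule takes in by its letters, had 101, 84.9 and 103 FPKM at 2 kPa and 85.1, 109 and 91.3 FPKM at 25 kPa, a difference of −0.02 (SE 0.13). The cells carried markers of an epithelium. KRT18 was at 2611 to 3358 FPKM and EPCAM at 64.7 to 100.8 FPKM over the libraries, although KRT20 and CDX1 were close to 0. Of 7 fibroblast markers 2 were in the table, LUM and PDGFRB, at 0.55 FPKM or less in every library. The table held 8 of 11 epithelial markers and 2 of 5 leukocyte markers. These 2 leukocyte markers summed to 2.32 to 5.41 FPKM in a library. Of 21 reference genes of glycolysis and the cytoskeleton, TUBB, TUBA1B and CFL1 had an unadjusted p under 0.05, all with higher values at 25 kPa, and of 8 epithelial markers CDX2 and of 2 leukocyte markers LYZ had, with lower values.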

How the data were processed

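Each of the 6 samples was assigned to its stiffness and replicate from its label, and 0 columns stayed unassigned. The authors deposited FPKM per gene symbol and library, with 2 decimals, after quality assessment and prediction of coding potential. The submitters' processing notes name HISAT, StringTie, Bowtie2, RSEM and the build hg18, without roles. FPKM carry no read numbers, so the depth per library is unknown and precision rests on the spread between libraries. The deposited FPKM were put on the log2(FPKM + 1) scale for all 8529 rows (none was 0, and 11 symbols are written as dates) and compared with limma 3.58.1 in R 4.3.3 (lmFit, eBayes with a trend, two-sided, Benjamini-Hochberg). The study's DESeq2 needs counts and was not run. A single gene's exact permutation p, which with 3 against 3 cannot go below 0.1, was therefore not quoted.

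Library values were given for members past the threshold, the 5 with the smallest p in each direction and the 5 highest and 5 lowest in each subunit, and genes with a known role. Members, lists and this rule were chosen with earlier results of these data known. Some results under this rule are not reported here. No p was computed over a list. Starts came from RefSeq (GRCh38.p14), and transcript numbers, lengths and GC content (95.9% of rows) from GENCODE on GRCh38. The script was tested on simulated data.

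As alternatives, the pseudocount was 0.1 or 0.01, rows were kept from a mean of 1 FPKM, and the fit was repeated with equal library sums over all rows or over rows outside the family, quantile normalisation, median centring, no trend, a replicate block, each library left out, and GC and length trends removed (lowess span 0.3). Equal sums over the members and restriction to members of at least 100 FPKM were chosen after seeing the data.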

Additional observations from a re-analysis of the deposited data

How the results depend on the processing

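No ribosomal protein gene passed the adjusted threshold under any alternative, and the lowest adjusted p of a member in any of them was 0.314. Over all genes, the count of 10 became 17 with a pseudocount of 0.1, 6 without a trend and 3 with the replicate block, and the cause was not tested. With each library left out, which leaves fewer samples, it ranged from 3 (25 kPa replicate 2) to 11, and was 5 or 6 without 2 kPa replicate 1 or 25 kPa replicates 1 or 3. The deviations of same-numbered libraries correlated at 0.115, −0.267 and −0.125, and those of differently numbered libraries at −0.238 to 0.294. Deviations within a group of 3 sum to 0, so these values cannot settle whether the replicate numbers pair the samples. With the block 0 members were called. The difference between stiffnesses in the median level of large minus small subunit rows was 0.00065, and became 0.10 with quantile normalisation, −0.0439 with the GC trend removed, 0.0406 at a mean FPKM of at least 1 and −0.0689 for members of at least 100 FPKM, so its sign depended on these settings, and the cause was not tested. Leaving out each library gave −0.02 to 0.02. Of the 37 members under the rule for naming, 18 kept the sign of their difference in every alternative (18, or 17 for the 4 with a mean under 1 FPKM). Depth is unknown, and the low values carry an unknown counting error.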
